A study of Mus musculus with 6 samples.

Results

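Microglia are the resident macrophages of the brain, and 10 genes whose products mark their resting, or homeostatic, state were followed here after experimental stroke in the SVZ, the subventricular zone along the lateral ventricle, where new neurons form. The genes were chosen by name, with earlier results of these data known: Tmem119, Siglech, Sall1, Cx3cr1, Gpr34, Olfml3, Csf1r, Selplg, Crybb1 and Slc2a5. All 10 were among the 18194 genes measured, each through probe sets that the array annotation assigns to that symbol alone. Where a gene had several probe sets (3 of the 10), the one with the highest mean over the 6 arrays stood for it. The 2 groups of adult male C57BL/6 mice had 3 one-colour arrays of SVZ total RNA each. The MCAO group had middle cerebral artery occlusion, which blocks the artery that feeds striatum and lateral cortex, and its SVZ was taken on the side of the lesion 48 h later. The sham group had sham surgery and was also killed after 48 h. Samples are numbered 1 to 3 in both groups, and no label says what the number marks. No label says that each array held a separate mouse, and the spread that enters the p-values is that between these arrays, which may be technical.

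Homeostatic microglia survey the tissue with motile processes. They depend on signals through the colony-stimulating factor receptor Csf1r and on transforming growth factor beta, and the transcription factor Sall1 maintains their identity. In injured brain, microglia that take on a phagocytic or inflammatory state are known to express less of several of these genes, while the number of microglia and infiltrating macrophages can increase. In bulk tissue, fewer cells of a type and less RNA per cell cannot be told apart. Csf1r, Cx3cr1 and Selplg are also expressed by other leukocytes, and Siglech by plasmacytoid dendritic cells.

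Levels are log2 expression values after quantile normalization between arrays, and 1 unit is a doubling. Pearson's r between arrays, computed across genes, ran from 0.975 to 0.992. MCAO 1 and sham 1 stood apart from the other 4 arrays on the principal component with 40.8% of the variance, and deviations from the group means correlated at 0.77, 0.44 and 0.48 between the arrays numbered 1, 2 and 3. The sample number was therefore also fitted as a block, that is, as a paired comparison. The deviations of a gene cancel out within a group, so these correlations are not independent of each other. No label says that same-numbered arrays belong together, so this pairing rests on these same values, and its p-values may be too small. In sham tissue 9 of 10 measured genes of neural stem cells and neuroblasts, among them Dcx, and 6 of 6 ependymal genes lay above the median gene level of 7.15, as did 7 of 7 astrocyte genes. With no other tissue to compare, the SVZ label itself was not tested.

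Olfml3 was higher in MCAO than in sham tissue by more than the spread between samples. A higher mean in MCAO was found for 9 of the 10 genes, against 8669 of all 18194 genes. By limma's moderated test, 2-sided, with Benjamini-Hochberg adjustment over all genes and a threshold of 0.05, 1 of the 10 rose, 0 fell and 9 did not pass, where 1.12% of all genes tested rose. In the paired fit, by limma with the block, 5 of the 10 rose (Olfml3, Gpr34, Cx3cr1, Csf1r and Tmem119) and 0 fell, where 4.82% of all genes rose and 6.12% passed in either direction. The median difference of the 10 genes, MCAO minus sham, was 0.33 log2, against -0.0064 over all genes. In 4 of the 10 all MCAO values lay above all sham values, against 8.43% of all genes, and in 7 of the 10 MCAO was higher within all 3 same-numbered pairs, against 20.0% of all genes.

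**Figure D1:**
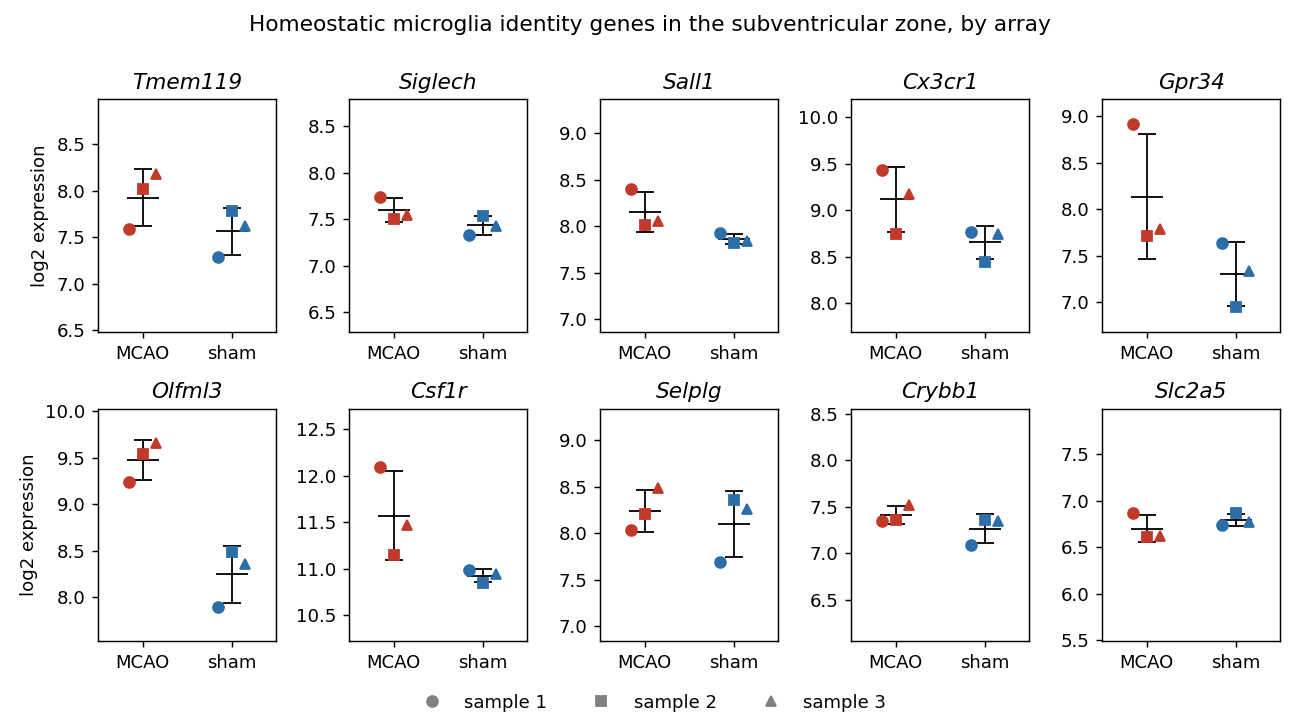
Log2 expression of each of the 10 genes (vertical axis, the same span of log2 units in each panel) on 3 MCAO arrays (red) and 3 sham arrays (blue); the symbol gives the sample number, and the bars give mean ± SD. The groups are separate for Olfml3, Gpr34, Csf1r and Sall1 and overlap for the other 6 genes.

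Promoter sequences are shown for Olfml3, which rose in both fits, for Cx3cr1, which rose only with the block, and for Siglech and Crybb1, which passed in neither. The windows span 300 bases around an annotated start, most of them upstream, from RefSeq on GRCm38.p6, and 6 of the 10 genes had at least 1 entry. They lie at chr3:103737952-103738251 (minus strand), chr9:120068247-120068546 (minus strand), chr7:55767934-55768233 (plus strand) and chr5:112255570-112255869 (plus strand). The Crybb1 window lies inside the annotated span of its gene, chr5:112254563-112269585, and does not hold the first base of that span. Capitals mark matches, on either strand, to GAGGAA, a purine-rich core bound by PU.1, the myeloid factor encoded by Spi1, or to TATAAA, the TATA box; these letters do not overlap each other.
Olfml3: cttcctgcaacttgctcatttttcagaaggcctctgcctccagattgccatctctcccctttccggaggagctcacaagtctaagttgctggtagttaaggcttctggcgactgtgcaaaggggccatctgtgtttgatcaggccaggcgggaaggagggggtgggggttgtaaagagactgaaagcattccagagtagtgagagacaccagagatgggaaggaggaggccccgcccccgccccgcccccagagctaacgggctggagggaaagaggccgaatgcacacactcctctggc
Cx3cr1: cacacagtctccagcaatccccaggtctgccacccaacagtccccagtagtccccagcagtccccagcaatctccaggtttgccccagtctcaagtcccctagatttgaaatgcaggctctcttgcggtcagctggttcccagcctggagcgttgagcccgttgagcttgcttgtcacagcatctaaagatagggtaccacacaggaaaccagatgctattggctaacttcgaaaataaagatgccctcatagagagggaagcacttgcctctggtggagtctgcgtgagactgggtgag
Siglech: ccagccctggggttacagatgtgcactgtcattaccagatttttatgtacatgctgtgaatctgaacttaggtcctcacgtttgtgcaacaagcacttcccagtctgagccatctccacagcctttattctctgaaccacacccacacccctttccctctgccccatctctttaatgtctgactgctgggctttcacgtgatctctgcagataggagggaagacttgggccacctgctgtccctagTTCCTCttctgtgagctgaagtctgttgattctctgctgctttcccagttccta
Crybb1: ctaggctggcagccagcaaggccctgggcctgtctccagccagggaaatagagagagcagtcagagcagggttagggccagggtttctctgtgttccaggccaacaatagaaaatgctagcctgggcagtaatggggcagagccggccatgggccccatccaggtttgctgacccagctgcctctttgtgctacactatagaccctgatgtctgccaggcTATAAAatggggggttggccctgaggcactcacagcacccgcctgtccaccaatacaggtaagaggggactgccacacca
GAGGAA was found in 1 of 8 windows of these 6 genes, that of Siglech, and in 28.3% of all 32851 promoter windows. TATAAA was found in 1 of the 8, that of Crybb1, and in 13.6% of all windows. The Olfml3 and Cx3cr1 windows held neither, which says only that these letters are not in these windows.

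Among the receptors, Csf1r encodes the tyrosine kinase receptor for the cytokines Csf1 and Il34, on which microglia depend for survival. Its log2 level was 12.09, 11.15 and 11.48 in MCAO 1 to 3, against 10.99, 10.85 and 10.94 in sham 1 to 3. The groups did not overlap, and the MCAO arrays were spread over nearly 1 unit while the sham arrays lay close together. The means were 11.57 ± 0.48 in MCAO and 10.93 ± 0.07 in sham (SD, n = 3 each), a difference of 0.65 ± 0.21 log2 (SE), or 1.56-fold. The adjusted p was 0.341 in the unpaired fit and 0.0133 in the paired fit, where it passed. The difference was 1.10 in pair 1, 0.30 in pair 2 and 0.54 in pair 3, and it was 0.39 without MCAO 1 and 0.42 without both arrays numbered 1 (adjusted p = 0.278 unpaired, 0.0172 paired). Its other 2 probe sets read 0.60 ± 0.18 and 0.56 ± 0.12 log2 higher in MCAO (SE), with adjusted p of 0.291 and 0.103 in the unpaired fit. The 3 probe sets thus gave differences of like size, though sham 1 was the highest sham array on the brightest one (10.99) and the lowest on the other 2 (9.004 and 8.422).

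Gpr34 encodes a receptor for the lipid lysophosphatidylserine and is strongly enriched in microglia. It read 8.91, 7.71 and 7.79 log2 in MCAO 1 to 3, against 7.64, 6.95 and 7.33 in sham 1 to 3. All MCAO arrays were above all sham arrays, and MCAO 1 stood more than 1 unit above the other MCAO arrays. The difference was 0.83 ± 0.32 log2 (SE, n = 3 each), or 1.78-fold, which passed in the paired fit (adjusted p = 0.00294) but not in the unpaired one (adjusted p = 0.476). Within pairs it was 1.27, 0.76 and 0.45. Without MCAO 1 it was 0.44 (adjusted p = 0.510).

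Cx3cr1 encodes the receptor for fractalkine (Cx3cl1), a chemokine made by neurons. Its level was 9.44, 8.74 and 9.18 log2 in MCAO 1 to 3, against 8.77, 8.45 and 8.75 in sham 1 to 3. MCAO 2 lay just below 2 of the sham arrays, so the groups overlapped, while MCAO was higher within each pair, by 0.67, 0.30 and 0.43. The difference of 0.46 ± 0.18 log2 (SE, n = 3 each) passed in the paired fit (adjusted p = 0.00778) but not in the unpaired one (adjusted p = 0.461), nor in the paired one with pair 1 left out (0.36 log2, adjusted p = 0.0511). The other probe set gave 0.43 ± 0.11 log2 (SE; adjusted p = 0.176 unpaired), and on it the groups did not overlap. It was not fitted with the block.

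The genes for ligands of Csf1r, Cx3cr1 and the product of Selplg were not called without the block. Of 5 measured, 0 passed and 1 had an unadjusted p under 0.05 by limma. Csf1 read 7.94, 7.80 and 8.47 log2 in MCAO 1 to 3, against 7.52, 7.50 and 7.77 in sham 1 to 3. That difference of 0.47 ± 0.17 (SE; adjusted p = 0.426) passed with the block (adjusted p = 0.00835). Il34, the ligand made mainly by neurons, read -0.18 ± 0.08 log2 (SE; adjusted p = 0.578) and Cx3cl1 -0.21 ± 0.16 (SE; adjusted p = 0.879). The gene for P-selectin, Selp, a vessel and platelet adhesion molecule bound by the product of Selplg, read 0.17 ± 0.11 log2 (SE; adjusted p = 0.848).

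Olfml3 encodes a secreted olfactomedin-like glycoprotein of the extracellular matrix. Its log2 level was 9.24, 9.54 and 9.66 in MCAO 1 to 3, against 7.90, 8.48 and 8.36 in sham 1 to 3. Every MCAO array lay well above every sham array, and the difference within pairs was 1.34, 1.05 and 1.30. The means were 9.48 ± 0.21 in MCAO and 8.25 ± 0.31 in sham (SD, n = 3 each). Olfml3 rose by 1.23 ± 0.17 log2 (SE; 95% interval 0.84 to 1.62), or 2.35-fold, with adjusted p = 0.0165 unpaired and 1.53e-05 paired. The call was lost without MCAO 2 (1.20 log2, adjusted p = 0.0683), MCAO 3 (1.14, 0.0896) or sham 3 (1.29, 0.0892), while the difference stayed between 1.06 and 1.35 log2 whichever array was left out.

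**Figure D2:**
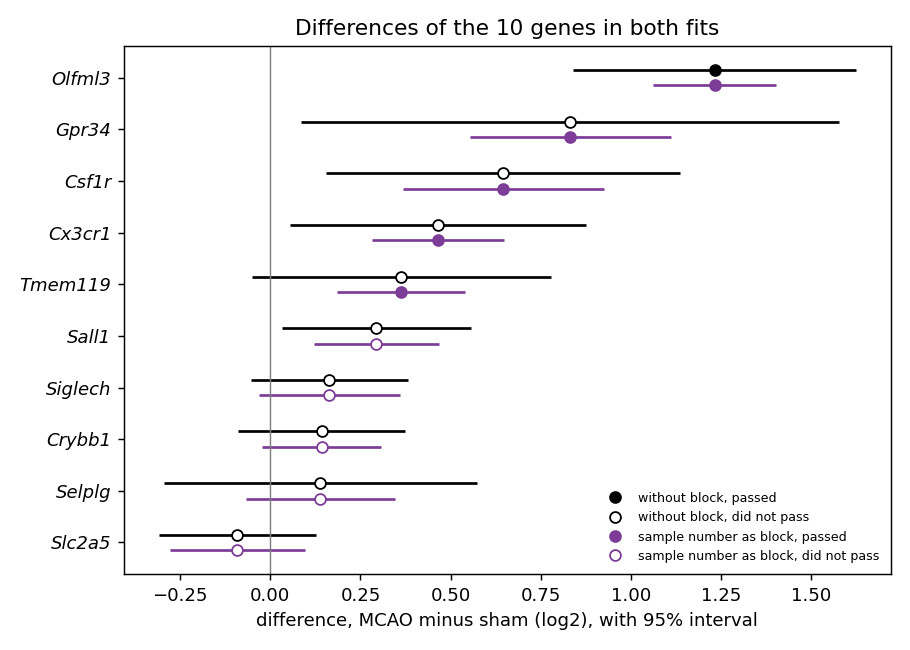
Difference of each gene, MCAO minus sham in log2 units, with its 95% interval, in the fit without the block (black) and in the paired fit (purple); filled points passed the threshold of 0.05 on the adjusted p. Olfml3, at 1.23, passed in both fits, Gpr34, Csf1r, Cx3cr1 and Tmem119 only with the block.

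Sall1 encodes the zinc-finger transcription factor that sets microglia apart from other macrophages. Its level was 8.40, 8.01 and 8.05 log2 in MCAO 1 to 3, against 7.93, 7.82 and 7.84 in sham 1 to 3. The groups did not overlap, but MCAO 2 and MCAO 3 lay close to sham 1. The difference of 0.29 ± 0.11 log2 (SE, n = 3 each; 95% interval 0.03 to 0.56) passed in neither fit (adjusted p = 0.470 unpaired, 0.0547 paired). It was 0.17 without MCAO 1, and the other probe set of Sall1 read 0.19 ± 0.09 log2 (SE; adjusted p = 0.624 unpaired).

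Tmem119 encodes a transmembrane protein that is widely used to tell microglia from infiltrating macrophages. It read 7.59, 8.01 and 8.18 log2 in MCAO 1 to 3, against 7.28, 7.79 and 7.62 in sham 1 to 3. The groups overlapped, with both arrays numbered 1 the lowest of their group, and MCAO was higher within each pair, by 0.30, 0.23 and 0.56. The difference was 0.36 ± 0.18 log2 (SE, n = 3 each), with adjusted p = 0.669 unpaired and 0.0244 paired. The paired call was lost when pair 3 was left out (0.26 log2, adjusted p = 0.154).

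Siglech and Selplg encode surface proteins of microglia and some leukocytes, a sialic acid-binding lectin and the P-selectin glycoprotein ligand, and neither passed in either fit. Siglech read 7.74, 7.50 and 7.55 log2 in MCAO 1 to 3, against 7.33, 7.53 and 7.43 in sham 1 to 3. Selplg read 8.03, 8.20 and 8.48 in MCAO 1 to 3, against 7.69, 8.35 and 8.26 in sham 1 to 3. For both genes the groups overlapped, and in pair 2 MCAO was the lower array, by 0.03 and 0.15 log2. The differences were 0.16 ± 0.09 log2 for Siglech (SE; 95% interval -0.05 to 0.38; adjusted p = 0.760) and 0.14 ± 0.19 for Selplg (SE; 95% interval -0.30 to 0.57; adjusted p = 0.955). Both intervals include 0. The difference of Selplg had the opposite sign without sham 1 (-0.07 log2).

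Crybb1, a crystallin gene known from the lens and also enriched in microglia, and Slc2a5, the gene of the fructose transporter GLUT5, had, with Selplg, the differences nearest 0. Crybb1 read 7.34, 7.36 and 7.52 log2 in MCAO 1 to 3, against 7.09, 7.36 and 7.35 in sham 1 to 3. Slc2a5 read 6.87, 6.61 and 6.62 in MCAO 1 to 3, against 6.74, 6.87 and 6.77 in sham 1 to 3. The groups overlapped for both genes. Crybb1 differed by 0.14 ± 0.10 log2 (SE; 95% interval -0.09 to 0.37; adjusted p = 0.852). Slc2a5 was the 1 gene of the 10 with a lower mean in MCAO, by -0.09 ± 0.09 log2 (SE; 95% interval -0.31 to 0.13; adjusted p = 0.931). It was also the 1 gene of the 10 whose sham mean lay below the median gene level, and the values come with no detection call.

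On the probe sets that stood for them, the 10 genes did not vary alike between samples of a group. On both arrays numbered 1, 4 of the 10 (Gpr34, Csf1r, Cx3cr1 and Sall1) were higher than the mean of the other 2 arrays of their group, and 4 (Tmem119, Olfml3, Selplg and Crybb1) were lower. The remaining pair, Siglech and Slc2a5, were higher on MCAO 1 and lower on sham 1. Over all genes 71.8% had the same sign in both groups, and the 10 genes did so at 80.0%. For Gpr34 the deviation of the array numbered 1 was 1.16 log2 in MCAO and 0.50 in sham, and for Tmem119 it was -0.51 in MCAO and -0.42 in sham. A difference within a pair leaves out what its arrays share. The 3′ minus 5′ difference of the beta-actin control probe sets, a measure of RNA integrity, was 0.935, 0.946 and 1.10 log2 in MCAO 1 to 3, against 0.948, 1.30 and 1.13 in sham 1 to 3. For the Gapdh control it was 0.087, 0.061 and 0.294 in MCAO 1 to 3, against 0.046, 0.244 and 0.156 in sham 1 to 3. The part of RNA integrity in these values was not tested.

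**Figure D3:**
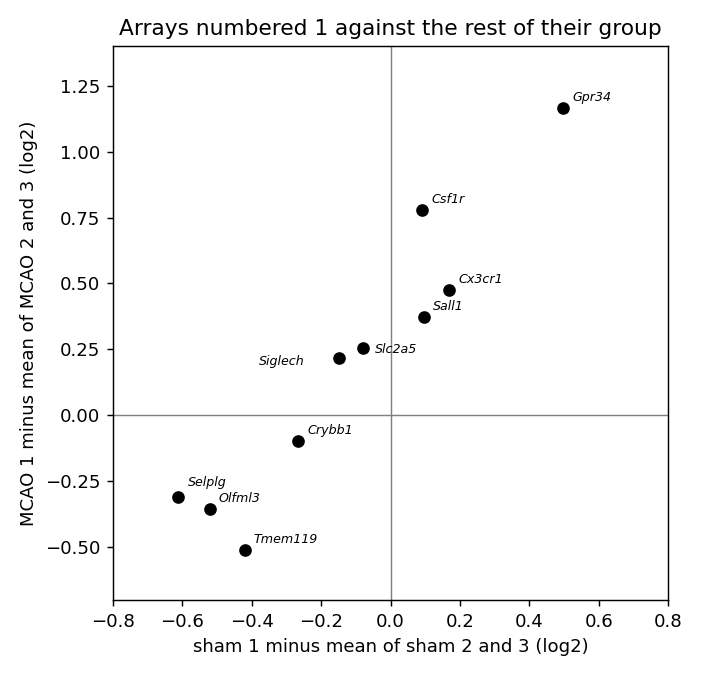
For each of the 10 genes, the log2 level on MCAO 1 minus the mean of MCAO 2 and MCAO 3 (vertical axis), plotted against the level on sham 1 minus the mean of sham 2 and sham 3 (horizontal axis). Gpr34, Csf1r, Cx3cr1 and Sall1 lie in the upper right, higher on both arrays numbered 1, and Tmem119, Olfml3, Selplg and Crybb1 in the lower left. Each gene is shown through 1 probe set, and the other probe sets of Csf1r, Cx3cr1 and Sall1 would lie elsewhere.

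Among other genes enriched in homeostatic microglia, Fcrls and Pros1 had the smallest p and rose. Of 12 measured, 4 rose, 0 fell and 8 did not pass, 8 rose with the block, and the median difference was 0.41 log2. Fcrls, an Fc receptor-like gene of mouse microglia, read 9.85, 9.70 and 9.94 log2 in MCAO 1 to 3, against 8.07, 8.42 and 8.28 in sham 1 to 3, a rise of 1.58 ± 0.11 (SE; adjusted p = 0.00304). Pros1, which encodes protein S, a bridging ligand for the engulfment receptor gene Mertk, rose by 0.95 ± 0.09 (SE; adjusted p = 0.00457), and the Golgi membrane protein gene Golm1 by 0.61 ± 0.10 (SE; adjusted p = 0.0344). P2ry12, the ADP receptor that steers microglial processes, read 9.124, 7.999 and 8.020 log2 in MCAO 1 to 3, against 8.494, 7.973 and 8.218 in sham 1 to 3. It overlapped between groups, with a difference of 0.15 ± 0.30 (SE; adjusted p = 0.972) that was -0.22 without MCAO 1 and -0.09 without both arrays numbered 1. Golm1 lost its call on the values as deposited (adjusted p = 0.0686) and without MCAO 3, sham 1, sham 2 or sham 3 (0.134, 0.0987, 0.121 and 0.174), and the list's count was 2 on the values as deposited and without each of those 4 arrays.

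Factors that set the microglial programme were measured through 11 genes of transcription factors and transforming growth factor beta signalling, of which 1 rose and 10 did not pass (4 rose with the block; median 0.22 log2). Irf8, a factor for microglial development, read 7.26, 7.16 and 7.43 log2 in MCAO 1 to 3, against 6.71, 6.76 and 6.82 in sham 1 to 3, and rose by 0.52 ± 0.09 (SE; adjusted p = 0.0448). Its difference stayed between 0.45 and 0.58 with each array left out in turn, and each time the call was lost, with adjusted p between 0.0574 and 0.180. Spi1 read 0.35 ± 0.10 higher in MCAO, the receptor gene Tgfbr2 0.54 ± 0.11 and the ligand gene Tgfb1 0.32 ± 0.15 (SE). Their adjusted p-values were 0.268, 0.0778 and 0.642 without the block, and 0.0221, 0.00231 and 0.0221 with it. The paired call of Spi1 was lost with pair 1 or pair 3 left out (0.102 and 0.132), and that of Tgfb1 likewise (0.223 and 0.0537) and on the values as deposited (0.0522). With dim genes (mean below the median gene level) left out 0 genes of this list passed, but Irf8 was itself among those left out.

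Genes of microglia and other myeloid cells differed more in the same samples. Of 12 measured, 9 rose, 0 fell and 3 did not pass, all 12 rose with the block, and the median difference was 1.24 log2, against 0.33 for the 10 homeostatic genes. Their mean level per array ran from 9.05 to 9.56 log2 in MCAO and from 8.07 to 8.15 in sham, and their part in the values of the 10 genes was not tested. Within pairs 1, 2 and 3 the median difference of the myeloid genes was 1.53, 0.99 and 1.11, against 0.44, 0.21 and 0.33 for the homeostatic genes. The difference between the lists was not tested. C1qa, C1qb and C1qc, the subunits of complement C1q, rose by 1.39, 1.37 and 1.51 log2 (adjusted p = 0.00405, 0.00405 and 0.00662). Aif1, which encodes the microglia and macrophage protein IBA1, read 8.83, 8.25 and 8.20 log2 in MCAO 1 to 3, against 7.45, 7.22 and 7.32 in sham 1 to 3, a rise of 1.10 ± 0.17 (SE; adjusted p = 0.0258). Ptprc, the gene of the leukocyte antigen CD45, rose by 1.29 ± 0.19 (SE; adjusted p = 0.0238). Itgam, the gene of CD11b, read 0.48 ± 0.23 (SE; adjusted p = 0.668, and 0.0353 with the block, 0.170 with the block and pair 1 left out). The count of 9 was 5 without MCAO 3, 6 without sham 2 and 3 without sham 3. Aif1 lost its call on the values as deposited (adjusted p = 0.0558) and without MCAO 2, MCAO 3, sham 2 or sham 3 (0.0523, 0.0580, 0.103 and 0.152), and Ptprc without MCAO 3, sham 2 or sham 3 (0.0621, 0.0928 and 0.127). Averaged over its probe sets Ptprc read 0.65 (adjusted p = 0.0571).

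**Figure D4:**
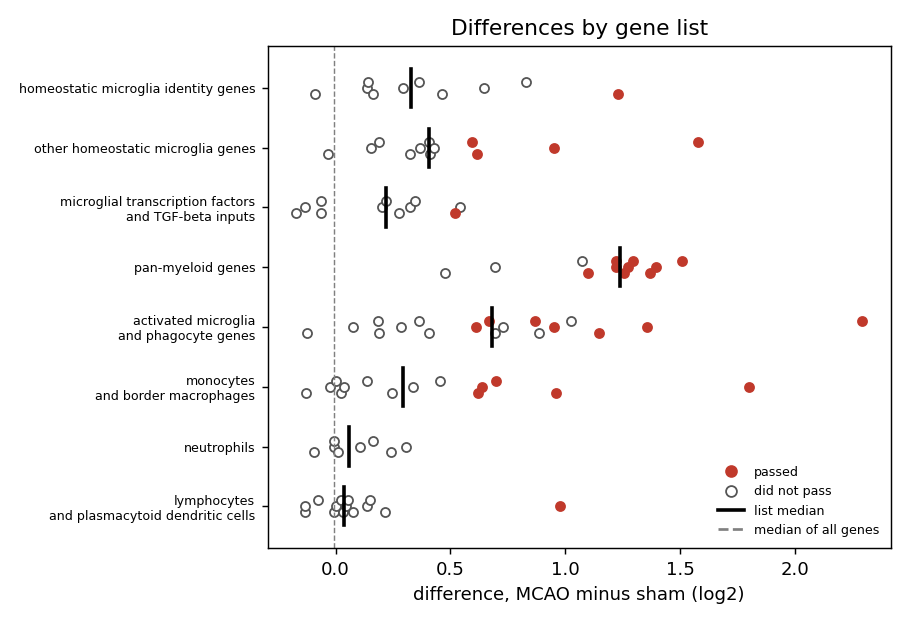
Difference of each measured gene, MCAO minus sham in log2 units, by list; filled red points passed the threshold of 0.05 on the adjusted p without the block, black bars are list medians and the dashed line is the median of all genes, at -0.0064. The 10 homeostatic genes have a median of 0.33, and the 12 genes of microglia and other myeloid cells (labelled pan-myeloid) one of 1.24.

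Some genes of activated phagocytes and of monocytes and border macrophages rose in the same samples, while most did not pass, and their part in the values of the 10 genes was not tested. Of 18 measured genes of activated microglia and phagocytes 7 rose and 11 did not pass (13 rose with the block; median 0.68 log2), and their mean level per array ran from 8.47 to 8.79 log2 in MCAO and from 7.88 to 7.98 in sham. Fcgr1, a high-affinity Fc receptor, rose by 1.35, Cd14, the endotoxin coreceptor, by 0.95 and Ctsz, a lysosomal protease, by 1.15 log2 (adjusted p = 0.00304, 0.00383 and 0.00461). The count of 7 was 3 without sham 3. Of 14 measured genes of monocytes and border macrophages 5 rose and 9 did not pass (6 rose with the block; median 0.29), and their mean level per array ran from 6.71 to 6.78 log2 in MCAO and from 6.29 to 6.40 in sham, where 1 of the 14 lay above the median gene level. With dim genes left out 1 of them passed, S100a4, in a fit that did not hold Mrc1 and Ms4a6c. The 3 with the smallest p were the mannose receptor gene Mrc1, at 0.96, Ms4a6c, at 0.70, and the calcium-binding protein gene S100a4, at 1.80 log2 (adjusted p = 0.00304, 0.00895 and 0.00895). Ccr2, the chemokine receptor of inflammatory monocytes, read 6.81, 6.82 and 7.06 log2 in MCAO 1 to 3, against 6.74, 6.97 and 6.87 in sham 1 to 3, a difference of 0.04 ± 0.10 (SE; adjusted p = 0.983) between groups that overlapped. The count of 5 was 2 without MCAO 3, 3 without sham 1 or sham 2 and 1 without sham 3, where Ms4a6c and S100a4 lost their calls (0.0557 and 0.0734), as S100a4 did without MCAO 3 (0.0504).

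Of 8 measured neutrophil genes 0 passed in either fit, and 1 had an unadjusted p under 0.05 by limma. S100a8, S100a9 and Csf3r came first by p, at 0.24, 0.31 and 0.16 log2 (adjusted p = 0.377, 0.609 and 0.758). Of 14 genes of lymphocytes and plasmacytoid dendritic cells 1 rose, Bst2, a gene that interferon induces in many cells, by 0.98 ± 0.15 log2 (SE; adjusted p = 0.0306). The B-cell receptor component gene Cd79b and the transcription factor gene Tcf4 came next by p, at 0.22 and 0.15 log2 (adjusted p = 0.646 and 0.602). Bst2 lost its call without MCAO 3, sham 1, sham 2 or sham 3 (0.137, 0.0531, 0.117 and 0.177). Neutrophil genes had a mean level per array from 6.34 to 6.43 log2 in MCAO and from 6.21 to 6.35 in sham, with 0 of 8 above the median gene level in sham, and genes of lymphocytes and plasmacytoid dendritic cells one from 6.82 to 6.95 in MCAO and from 6.73 to 6.83 in sham.

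Proliferation genes, which dividing microglia share with the progenitors of the SVZ, rose in part. Of 9 measured, 5 rose and 4 did not pass, and all 9 rose with the block (median 0.73 log2). Ccnb2, Tk1, Cdk1 and Mki67 rose by 1.01, 0.73, 1.12 and 0.83 log2 (adjusted p = 0.00457, 0.0108, 0.0123 and 0.0134). The count was 3 with dim genes left out, a fit that did not hold Ccnb2 and Tk1. It was 2 without MCAO 2 or MCAO 3 and 1 without sham 3, where Tk1, Cdk1 and Mki67 lost their calls (0.0807, 0.0892 and 0.0768). Cdk1 and Mki67 also lost theirs without MCAO 2 (0.0521 and 0.0532) or MCAO 3 (0.0640 and 0.0517).

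Genes of the other cells of the SVZ were followed beside these. Of 10 measured genes of neural stem cells and neuroblasts 0 passed, and 1 had an unadjusted p under 0.05 by limma. The adhesion gene Cd24a read 0.66 log2 higher in MCAO (adjusted p = 0.323) and passed with the block (0.00465), while the filament gene Nes read 0.35, the transcription factor gene Sp8 0.29 and the neuroblast gene Dcx 0.13 (adjusted p = 0.575, 0.793 and 0.896). Of 6 ependymal genes 0 passed, with 0 at an unadjusted p under 0.05 by limma: Foxj1 read 0.25, Rsph1 0.25 and Rarres2 0.30 log2 (adjusted p = 0.840, 0.863 and 0.912), and Rarres2 passed with the block (0.0364), but not on the values as deposited (0.0516) or with pair 1 or pair 3 left out (0.309 and 0.148). Of 7 astrocyte genes 2 rose, the folate enzyme gene Aldh1l1 by 0.89 log2 and Aqp4, of a water channel, by 0.97 (adjusted p = 0.00645 and 0.0413), and 4 rose with the block. Gfap, the filament gene of reactive astrocytes, read 9.91, 11.63 and 11.96 log2 in MCAO 1 to 3, against 7.29, 9.13 and 9.02 in sham 1 to 3, with both arrays numbered 1 far below the rest of their group. Its difference of 2.69 ± 0.63 (SE) passed in the paired fit (adjusted p = 5.62e-07) but not in the unpaired one (0.140). Unpaired, it passed without MCAO 1 (3.31 log2, 0.0239), without both arrays numbered 1 (2.72, 7.9e-05) and averaged over its probe sets (2.85, 0.0284). Without sham 3, 0 of the 7 passed (Aldh1l1 0.0543, Aqp4 0.200), and Aqp4 also lost its call without MCAO 3, sham 1 or sham 2 (0.120, 0.0827 and 0.144), on the values as deposited (0.0866) and averaged over its probe sets (0.121). Of 4 choroid plexus genes 0 passed, with 0 at an unadjusted p under 0.05 by limma: Ttr read -0.28, Clic6 -0.19 and Folr1 0.18 log2 (adjusted p = 0.689, 0.763 and 0.765).

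The mean of the 10 genes, each centred on its own mean, was 0.34, 0.06 and 0.23 log2 on MCAO 1 to 3, against -0.29, -0.18 and -0.16 on sham 1 to 3. MCAO 2 thus lay nearest to the sham arrays. The 5 other genes whose values over the 6 arrays were most like this mean, among those above the median gene level, were Igfbp2, Lyz1, Nupr1, H2-D1 and Ctsd, with Pearson's r of 0.992, 0.991, 0.989, 0.989 and 0.988. These r describe 6 arrays that share the split into 2 groups. Igfbp2 encodes a binding protein for insulin-like growth factors, Lyz1 a lysozyme, Nupr1 a stress-induced nuclear protein, H2-D1 a class I antigen-presenting molecule and Ctsd a lysosomal protease. The probe sets of Lyz1 and H2-D1 may also bind transcripts of near-identical genes, which these values cannot tell apart. Their differences were 1.11, 1.96, 0.60, 0.86 and 0.89 log2, given as a description, since likeness to a mean that is itself higher in MCAO chose them.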

How the data were processed

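The deposited table holds log2 expression values per probe set for 45101 probe sets on 6 arrays; the log2 scale was read from the values, and how the authors corrected background, summarised probes and normalized is unknown here, which can compress low values. Medians of the deposited arrays lay between 6.57 and 6.59, and 90th percentiles between 8.85 and 9.06, so quantile normalization was added. The array annotation gave 1 symbol to 34958 probe sets, several to 932 and none to 9211; for each of 18194 genes the probe set with the highest mean was kept. The groups were set against each other with limma 3.58.1 (R 4.3.3; lmFit, eBayes, 2-sided), adjusted by Benjamini-Hochberg over all genes. The fitting code was tested on simulated data. Intervals are 95% and unadjusted. An exact test of 3 against 3 arrays cannot go below p = 0.1, 2-sided. The number of arrays limits the precision.

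The 10 genes and 13 further lists were chosen with earlier results of these data known. Text names all 10, the 3 genes of each list with the smallest p, a fixed set of ligands, factors and cell markers, and the 5 genes most like the mean of the 10. Some list genes were not analysed here. The promoters and motifs shown were chosen after their sequences were seen. Correlations of deviations from group means exceeded 0.1 for every number, which is why the block is given where it changes a call. Between MCAO and sham arrays of different numbers these correlations ran from -0.59 to 0.29. The highest, for MCAO 3 with sham 2, also exceeded 0.1. Alternatives were the deposited values, median shifts, the block, the mean of probe sets, dim genes left out, trended or robust variance and arrays left out. Blocks with 1 pair left out were added after the data were seen.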

Additional observations from a re-analysis of the deposited data

How the results depend on the processing

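The count of 206 genes past the threshold became 1113 with the replicate block, 816 with that block on the values as deposited, 688, 1712 and 648 with the block and pair 1, 2 or 3 left out, and 44 to 209 with single arrays left out. The count of 1 among the 10 homeostatic genes became 5 with the block on either scale, 4, 7 and 4 with pair 1, 2 or 3 left out, and 0 to 1 with single arrays left out. With pair 2 left out Sall1 and Selplg joined the calls (adjusted p = 0.0239 and 0.0452). The difference of Selplg ranged from -0.0654 to 0.263 with single arrays left out. That of Ccr2 ranged from -0.0417 to 0.0942, and was -0.0378 with the block and pair 3 left out. That of P2ry12 ranged from -0.219 to 0.343, and was -0.0864 without both arrays numbered 1, with or without the block. The cause of these shifts was not tested. With the deposited values, median shifts, the mean of probe sets, dim genes left out, trended or robust variance, or both arrays numbered 1 left out, the count among the 10 genes was 1, namely Olfml3. Slc2a5 was not in the fit without dim genes. With median shifts Aif1, Golm1 and Aqp4 lost their calls (0.0562, 0.0702 and 0.0894), and without both arrays numbered 1 Golm1 and Irf8 did (0.0613 and 0.110). The number of arrays limits the precision, and the values carry no detection calls.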
